A study of Danio rerio with 32 samples.

Results

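The day 7 peak genes were the 100 probe sets, for 99 genes, whose signal was highest on day 7 by the widest margin in both array batches of a zebrafish muscle cell differentiation series. They were taken from the 10795 probe sets with a single gene symbol among 15502 that are not array controls. After quantile normalization the level of a probe set was log2(signal + 32), averaged per day in each batch. The score was the mean of day 7 minus the mean of the highest other day, in whichever batch gave the smaller value. The members were thus chosen by their day 7 level against the other days, and every statement on that level below is a description.

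The series followed mononuclear myogenic cells from the dorsal muscle of pooled adult zebrafish, expanded in growth medium and moved to differentiation medium with horse serum, from day 0 to day 14. The study gives the cells of the arrays as those of an α-actin-RFP transgenic line, in which a muscle actin promoter drives a red reporter in skeletal muscle, while the labels name no line. No agent other than the media was compared, and all groups shared the same isolation by enzyme digestion, Ficoll gradient and pre-plating. Batch 1 gave 11 arrays, with 1 array on day 0 and 2 on each later day. Batch 2 gave 20 arrays, with 3 on day 0, 3 on day 1, 4 on day 4, 5 on day 7, 3 on day 10 and 2 on day 14.

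As background, myoblasts that leave the cell cycle and fuse into myotubes build up mitochondria, since contraction is paid for by oxidative phosphorylation. The respiratory chain passes electrons from NADH and succinate to oxygen through complexes of many subunits, and ATP synthase uses the resulting proton gradient. Sterol synthesis supplies cholesterol for new membrane, and Hox genes record the position along the body from which a cell came.

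The labels grade 24 of the 32 arrays good and 8 poor, and batch 2 was hybridized in 4 runs while batch 1 was hybridized in a run of its own. Of the 5 day 7 arrays of batch 2, replicates A and B came from run 3 and were graded poor, and replicates C, D and E came from run 4 and were graded good. Run and grade cannot be told apart in that pair of sets. Scale factors of batch 1 were 10.1 to 23.4 on days 0 and 1 and 3.1 to 4.11 on day 7. The signal ratio of 3' to 5' gapdh probe sets also varied with day. In batch 1 it was 1.742 to 2.426 on days 0 and 1 and 1.189 to 1.296 on day 7. In batch 2 it was 3.336 to 9.718 on days 0 and 1, 2.464 to 4.01 on day 7 and 2.522 to 12 on days 10 and 14. Day 4 and the late days overlapped day 7 in both batches. The part of this ratio in the day 7 levels and the day contrasts was not tested. Of the 15 muscle marker probe sets, 6 were higher and 1 lower on days 10 and 14 than on days 0 and 1. On day 4, 0 were higher and 3 lower, namely those of tnnt3b (-2.35), ckma (-2.76) and 1 of mylpfa (-2.24), all of the contractile apparatus or its energy supply. The progenitor gene pax7a was dim, with a mean signal of 33.9 to 73.7 over its 4 probe sets. Markers of leukocytes were lower late than early for 12 of 15 probe sets, with a summed signal of 37601 to 81877 on days 0 and 1 and of 1717 to 20219 on day 7 over both batches. Late against early, 4 of 11 fibroblast probe sets, both of pigment cells and 1 of 2 of smooth muscle were higher, and 3 of 4 of erythrocytes, 2 of 3 of endothelium, 4 of 8 of epidermis and 3 of 9 of nerve and glia were lower, while 0 of 7 of cartilage and bone passed the test. On day 4, 2 fibroblast probe sets were higher and 5 lower. In these bulk samples, fewer cells of a type and less RNA per cell cannot be told apart, and the part of these markers in the results below was not tested.

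The margin by which day 7 led was small. Scores ran from 0.150 to 0.431 on the log2 scale with a median of 0.209, and 40 members scored under 0.2. The lowest ranked members were wu:fc90e06 (0.151) and dync1li1, a dynein light intermediate chain (0.150), and the probe sets just outside were slc49a4 (0.149) and prdx3, a mitochondrial peroxiredoxin (0.148). Over the whole array, 509 of 15502 probe sets (3.28%) were highest on day 7 in both batches, close to the 644 (4.15%) that were highest on day 0.

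The 20 leading members came from unlike functions. In order of score they were spryd4, nsd1a, fat1a, thap4, hoxc9a, hoxc8a, hadh, anapc4, tmem192, ap2m1b, ncbp2as2, ptrh2, rnf167, zgc:174310, fdps, bmal1b, wdr45b, coa8, hoxa4a and magi1a. They include a histone methyltransferase (nsd1a), an atypical cadherin (fat1a), a subunit of the anaphase promoting complex (anapc4), a lysosomal membrane protein (tmem192), the medium subunit of the AP-2 clathrin adaptor (ap2m1b) and a core clock factor (bmal1b).

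The level before and after day 7 was nearer to that of day 7 than to that of the first days. The median member stood 1.35 above its mean of days 0 and 1 on day 7 in batch 1, and 1.07 in batch 2, in log2 units, against 0.05 and 0.11 over all probe sets. Among members with a rise above 0.5, the median share of that rise already present on day 4 was 57.7% in batch 1 (95 members) and 60.6% in batch 2 (91 members). The median share still present on days 10 and 14 was 69.6% and 59.4%. The day next to day 7 in level was day 10 or 14 for 71 members in batch 1 and for 61 in batch 2, and day 4 for 20 and 36.

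The batches differed in how cleanly day 7 stood apart. In batch 1, both day 7 arrays were above all 9 others for 39 members, where 667 of all probe sets (4.3%) behaved so. In batch 2, the 5 day 7 arrays were above all 15 others for 0 members, where 11 of all probe sets (0.071%) behaved so. The rule used these arrays, so nothing follows from either count. The SD among day 7 arrays had a median of 0.113 over members in batch 1 (n = 2) and of 0.432 in batch 2 (n = 5), which was larger than the median score.

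**Figure D1:**
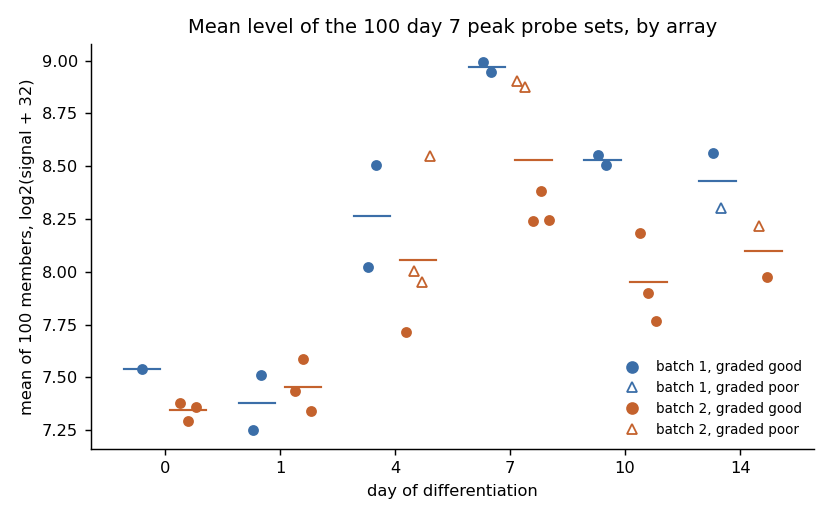
Mean log2(signal + 32) of the 100 members on each array (points) by day, with circles for arrays graded good, open triangles for arrays graded poor, and a bar for the mean of each day and batch. Both day 7 arrays of batch 1 lie near 9, while in batch 2 the 2 poor arrays lie at 8.90 and 8.87 and the 3 good arrays between 8.24 and 8.38.

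Contrasts between the other days asked whether the members also changed between days the rule did not place first. The fit behind them kept the day 7 arrays, which helped set its run terms and its spread. Run 4 covered days 7 and 14 alone, so the contrasts are not free of day 7. They were fitted with limma over all probe sets, with a term for each hybridization run and Benjamini-Hochberg adjustment, and a probe set was called at an adjusted p under 0.05. On days 10 and 14 against days 0 and 1, 65 of the 100 members rose and 0 fell, where 21.8% of all probe sets rose and 17.1% fell. The median difference of the members was 0.78, against 0.07 over all probe sets. With the array batch in place of the run it was 0.73 against 0.07, and with a replicate block 0.71 against 0.06. At an unadjusted p under 0.05 the members numbered 78 higher and 0 lower, where 4075 of all 15502 probe sets were higher and 3170 lower.

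On day 4 against days 0 and 1, 54 members rose and 0 fell, where 13.6% of all probe sets rose and 12% fell, and the median was 0.71 against 0.08. With good arrays only 26 members rose, where 1271 of all 15502 probe sets rose. In batch 1 alone 13 members rose, where 424 of all probe sets rose. Both rises were called for 47 members, the late rise alone for 18, the day 4 rise alone for 7 and neither for 28. Between day 4 and days 10 and 14, 2 members rose, where 6.83% of all probe sets rose and 4.83% fell. At an unadjusted p under 0.05 that contrast had 6 members higher and 0 lower, where 2219 of all 15502 probe sets were higher and 1838 lower. With the scaling of the authors alone 0 members were called in it, and the split over all probe sets went from 1059 higher and 748 lower to 797 higher and 1284 lower. A probe set that is highest on day 7 cannot be highest on day 0 or 1, so the rule leans these contrasts toward a rise, and the counts describe the members and carry no test of the list.

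**Figure D2:**
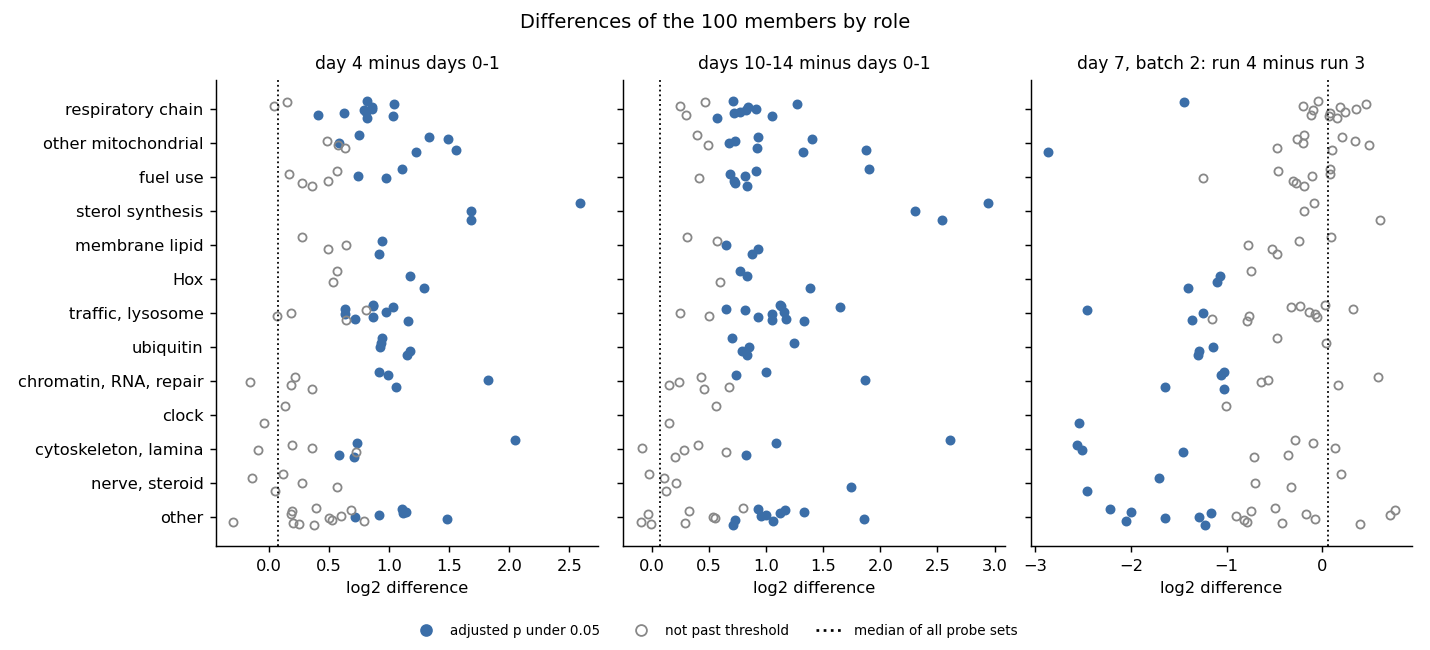
Log2 difference of each member (point) by role, for day 4 minus days 0 and 1, days 10 and 14 minus days 0 and 1, and run 4 minus run 3 among the day 7 arrays of batch 2, with filled points at an adjusted p under 0.05. The respiratory chain and sterol members lie to the right of the dotted median of all probe sets in both day contrasts, except cox10 on day 4 (0.04 against 0.08), and 28 members lie past the threshold on the left of the run panel.

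Subunits and assembly factors of the respiratory chain and ATP synthase formed a group of 12 members. They comprised the complex I subunits ndufa9a, ndufa10, ndufv1, ndufc1 and ndufs4, the complex III subunits uqcrc1 and uqcrfs1, the ATP synthase c subunit gene atp5mc1, the complex II assembly factor sdhaf4, the complex IV factors cox10 and coa8, and the ubiquinone synthesis enzyme coq7. On day 4, 10 of the 12 rose, and on days 10 and 14, 9 rose. Their median day 7 signal was 2159, against 334 for all members, and the range was 154 to 8322.

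The core protein gene uqcrc1 had signals of 5503 and 5291 on day 7 in batch 1, above the 2282 of day 0, the 1253 and 2051 of day 1, the 3393 and 4223 of day 4, and the 4287 to 4711 of days 10 and 14. In batch 2 its day 7 signals were 3819, 3928, 3882, 4347 and 3981, against 1116 to 2624 on days 0 and 1. There a day 4 array at 5119 and a day 10 array at 4322 overlapped them, while the day 14 arrays read 3145 and 3227. Its rise was 1.03 ± 0.18 (SE) on day 4 (adjusted p = 0.00016 in limma) and 1.05 ± 0.17 on days 10 and 14 (adjusted p = 2.6e-05).

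The complex I gene ndufa10 followed the same course. It had signals of 3152 and 3459.5 on day 7 in batch 1 and 1796, 2250.3, 2206, 2424 and 2233 in batch 2, where days 0 and 1 held 685 to 1277. Day 7 exceeded days 0 and 1 on every array in both batches but overlapped days 4, 10 and 14 in batch 2, where day 4 reached 2211. It rose by 0.85 ± 0.15 (SE) on day 4 and by 0.85 ± 0.14 on days 10 and 14, and uqcrfs1, the Rieske protein of complex III, by 0.82 ± 0.14 and 0.57 ± 0.13. The 2 members of the group without a call in either contrast were cox10 (0.04 and 0.24) and coa8 (0.15 and 0.47).

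The wider list of oxidative phosphorylation moved in the same way, although it was chosen with earlier results of these data known. Of its 94 probe sets, 36 (38.3%) were highest on day 7 in both batches, and 9 of those were members. The rule ranked on the day 7 level, so this share carries no test, nor do the shares of the other lists below. On day 4, 66 of the 94 rose and 2 fell, and on days 10 and 14, 60 rose and 1 fell. Between day 4 and days 10 and 14, 1 rose and 4 fell.

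**Figure D3:**
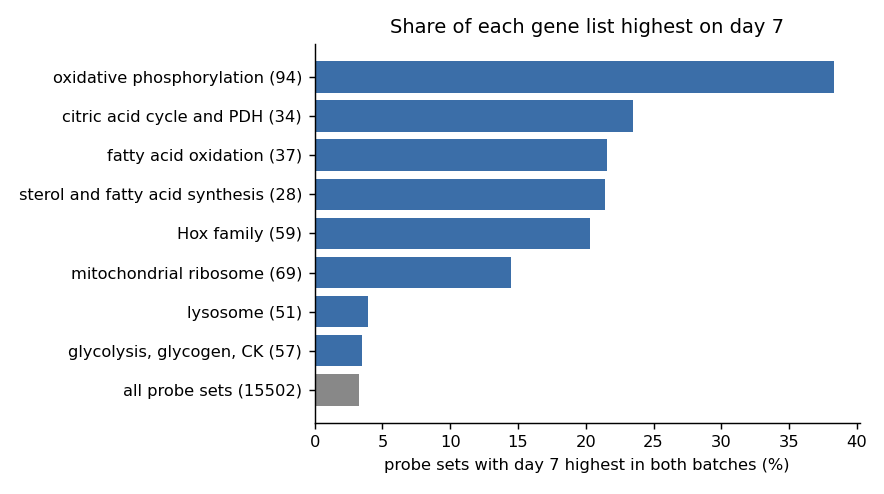
Percent of the probe sets of each gene list (number in parentheses) that were highest on day 7 in both batches, with the value over all probe sets in grey. Oxidative phosphorylation stands at 38.3%, the citric acid cycle and fatty acid oxidation at 23.5% and 21.6%, and glycolysis and the lysosome at 3.51% and 3.92%, near the 3.28% of all probe sets. The rule ranked on the day 7 level, and all lists but the lysosome hold members, so these shares carry no test.

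The other 9 mitochondrial members were mostly genes of expression in the organelle. They were the ribosomal protein genes mrpl37, mrpl53, mrpl54 and mrps12, the transcription and ribosome assembly factor mterf4, the peptidyl-tRNA hydrolase ptrh2, and the topoisomerase top1mt, beside the iron-sulfur glutaredoxin glrx5 and the cyclophilin ppifa, which have other roles. On days 10 and 14, 7 of the 9 rose, and on day 4, 6 rose. ptrh2 rose by 1.55 ± 0.30 (SE) on day 4 and by 1.87 ± 0.29 late, and mrpl53 by 1.49 ± 0.26 and 1.40 ± 0.25.

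The signals of mrpl53 on day 7 were 1226 and 1622 in batch 1 and 894, 765, 639.9, 593 and 834 in batch 2. They overlapped day 4 in both batches, where it reached 1393 and 976, and day 10 in both. The day 14 arrays, at 1127 and 803, lay below day 7 in batch 1, and the higher of them in batch 2, at 628, overlapped it. Among all 69 probe sets of mitochondrial ribosomal proteins, a list added after the members were seen, 55 rose and 0 fell on day 4, and 10 (14.5%) were highest on day 7 in both batches. Between day 4 and the late days 0 of these rose and 8 fell.

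Genes of fuel use formed a group of 8. They were the fatty acid oxidation enzymes hadh and acads, the hydroxysteroid dehydrogenase-like hsdl2, the pyruvate dehydrogenase subunit pdha1a and its kinase pdk4, the lactate dehydrogenase ldhba, the malic enzyme me1 and the catalytic subunit of AMP-activated kinase prkaa1. On days 10 and 14, 7 of the 8 rose, and on day 4 the 3 that rose were acads, ldhba and me1.

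The short-chain acyl-CoA dehydrogenase acads rose by 1.90 ± 0.18 (SE) on days 10 and 14 (adjusted p = 1.1e-08). Its signals were 51.0 to 96.9 on days 0 and 1 in batch 1, 185 and 285 on day 4, 663 and 548 on day 7, and 417 to 520.3 on days 10 and 14. In batch 2 they were 107 to 195 on days 0 and 1, 211, 297, 292 and 477 on day 4, 558, 522, 685, 549 and 498 on day 7, and 390.1 to 553 on days 10 and 14. The early and late arrays of each batch did not overlap, and the day 7 arrays of both runs of batch 2 read alike. It also rose between day 4 and days 10 and 14, by 0.79 ± 0.20 (adjusted p = 0.013).

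hadh, which acts on the hydroxyacyl-CoA step of the same pathway, held the widest margin of the group. Its signals were 2349.8 and 2310.3 on day 7 in batch 1, where the other days ran from 292 to 2013. In batch 2 it had 1367, 1054, 974, 1034 and 636 on day 7, against 378 to 1082 on day 4 and 439 to 835 on days 10 and 14. Day 7 stood clear in batch 1 and overlapped days 4, 10 and 14 in batch 2. It rose by 0.91 ± 0.27 on days 10 and 14 (adjusted p = 0.0097), and its day 4 difference was 0.57 ± 0.29 (adjusted p = 0.15).

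Of the 37 probe sets of fatty acid oxidation, 28 rose and 2 fell on days 10 and 14, and 10 rose and 3 fell on day 4. The list of sugar breakdown, glycogen and creatine kinase, which holds ldhba and pdk4, had 57 probe sets, of which 14 rose and 12 fell late.

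The sterol members had the largest median differences of the role groups, at 1.68 on day 4 and 2.54 on days 10 and 14, although single members of other groups, such as cdc42ep3, exceeded fdps and nsdhl. acat2, the cytosolic thiolase that opens the mevalonate pathway, fdps, which makes farnesyl diphosphate, and nsdhl, which removes methyl groups on the way to cholesterol, all rose in both contrasts. acat2 rose by 2.59 ± 0.27 (SE) on day 4 and by 2.94 ± 0.26 on days 10 and 14 (adjusted p = 3.8e-09). fdps rose by 1.68 ± 0.38 and 2.30 ± 0.37, and nsdhl by 1.68 ± 0.33 and 2.54 ± 0.32.

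In batch 1 the signals of acat2 were 368 to 864 on days 0 and 1, 1805 and 3587 on day 4, 6349.7 and 5525 on day 7, and 4728, 5127, 5273 and 2595 on days 10 and 14. In batch 2 they were 259.6 to 1474 on days 0 and 1, 2206 to 4272 on day 4, 4149.5, 3480.0, 3981, 3813 and 2991 on day 7, and 2240.1 to 3077 on days 10 and 14. The largest step thus came before day 4, and in batch 2 the day 4 arrays overlapped those of day 7. Of the 28 probe sets of sterol and fatty acid synthesis, 16 rose and 1 fell late, 12 rose and 1 fell on day 4, and 6 (21.4%) were highest on day 7 in both batches.

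The late rise of fdps differed between the batches. It was 3.56 in batch 1 and 1.28 in batch 2, a difference of -2.28 ± 0.58 (SE; adjusted p = 0.0142). Over all probe sets 5.8% of the late differences were higher and 6.63% lower in batch 2 than in batch 1, and of the members 1 was higher and 5 were lower. The others were spryd4 (2.84 and 0.94), mrpl54 (1.73 and -0.12), coq7 (1.88 and 0.55), cul5a, a cullin (1.96 and 0.78), and, higher in batch 2, the cryptochrome cry3b (-0.52 and 0.86). In the day 4 contrast 0 members differed between the batches, where 0.0968% of all probe sets were higher and 0.116% lower in batch 2. At an unadjusted p under 0.05, 4 members were higher and 10 lower, where 1117 of all 15502 probe sets were higher and 1287 lower. Between day 4 and the late days 0 members differed, where 0.0516% of all probe sets were higher and 0.0581% lower. At an unadjusted p under 0.05, 0 members were higher and 2 lower there, against 609 and 576 of all 15502 probe sets.

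Members of membrane traffic, the secretory pathway and the lysosome numbered 13. They included the adaptor subunits ap2m1b and ap5s1, the vacuolar sorting genes vps36 and vps45, the SNARE ykt6, the Rab7 activating subunit mon1bb, the autophagy gene wdr45b, the Ragulator subunit lamtor2, the cargo receptor lman2, the glycoprotein folding sensor uggt1 and the presenilin psen2. On days 10 and 14, 11 of them rose, and on day 4, 9 rose. lamtor2, which anchors mTORC1 signalling to the lysosome, rose by 1.03 ± 0.27 (SE) on day 4 and by 1.65 ± 0.26 on days 10 and 14.

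The signals of lamtor2 were 68.0 to 379.5 on days 0 and 1 in batch 1 and 1339.5 and 1308 on day 7, above the 961 to 1194 of days 10 and 14. In batch 2 the day 7 arrays read 736, 693, 675, 532 and 495, where days 10 and 14 held 382 to 632. ap2m1b had 2454 and 2752 on day 7 in batch 1, above all other arrays, and 453, 483, 401, 519 and 519 in batch 2, where the highest other array, on day 4, was at 418 and overlapped them. Of the 51 probe sets of a separate lysosome list 0 were members, and 2 of them (3.92%) were highest on day 7 in both batches.

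The ubiquitin group held anapc4, cul5a, the substrate adaptor klhl18, the proteasome shuttle rad23b and ubxn1, and all 5 member probe sets rose in both contrasts. Brighter probe sets of rad23b (mean signal 451 against 132) and ubxn1 (1064 against 273) were highest on day 7 in neither batch. The other probe set of anapc4 was highest on day 7 in batch 2 but on day 4 in batch 1. The ubiquitin ligase rnf167 was counted with membrane traffic, so the 5 are not all ubiquitin genes among the members. Its log2 means in batch 2 were 6.21 and 6.00 on days 0 and 1 and 5.77 and 6.04 on days 10 and 14. In batch 1 they were 5.93 and 5.49, and 6.43 and 5.92. Membrane lipid members were the acyltransferases agpat4, with both of its probe sets, and agpat5, the lysosomal galactosylceramidase galcb and the phosphatidylinositol transfer protein pitpnbl, of which 3 probe sets rose late and 2 on day 4.

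The Hox members were hoxc8a, hoxc9a, hoxc11a and hoxa4a. In the current RefSeq annotation of the zebrafish genome (GRCz12tu), hoxc8a and hoxc9a are neighbours on chromosome 23, and hoxc11a lies in the same cluster. hoxc9a rose by 1.29 ± 0.22 (SE) on day 4 and 1.39 ± 0.21 late, and hoxc11a by 1.17 ± 0.23 and 0.84 ± 0.22. The late difference of hoxc8a was 0.60 with an adjusted p of 0.054 in limma.

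hoxc9a had signals of 46.7 to 63.8 on days 0 and 1 in batch 1, 259.9 and 386 on day 4, 393 and 476 on day 7, and 256 to 338 on days 10 and 14. In batch 2 it had 49.1 to 142 on days 0 and 1 and 79.5, 293, 202 and 329.8 on day 4. The run 3 arrays of day 7 read 769 and 627, and the run 4 arrays 264, 236 and 228, next to 154 to 221 on days 10 and 14. The day 7 arrays of run 4 were above every late array and below 2 of the 4 day 4 arrays.

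The family as a whole, a list added after the members were seen, held 59 probe sets for 42 genes. Of these, 12 (20.3%) were highest on day 7 in both batches, 19 rose and 3 fell on days 10 and 14, and 5 rose and 3 fell on day 4. The probe sets that fell late were that of hoxb3a (-1.18) and 2 of hoxb8a (-1.42 and -2.15, log2). A further hoxb8a probe set did not fall (0.11, adjusted p = 0.725 in limma). The family thus did not move as a block.

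Among nuclear, cytoskeletal and signalling members, a few carried large differences. cdc42ep3, a Cdc42 effector that binds septins, rose by 2.05 ± 0.42 (SE) on day 4 and 2.61 ± 0.40 late. Its signals were 201 to 339 on days 0 and 1 in batch 1 and 6638 and 6161 on day 7. In batch 2 they were 1242 to 5304 early and 9233, 15288, 6899, 13141 and 10062 on day 7, while day 4 spread from 1058 to 18791.

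nsd1a, which methylates histone H3, had 1191 and 1179 on day 7 in batch 1, above all arrays but a day 4 array at 2477. In batch 2 its day 7 arrays read 1964, 2864, 1213, 1914 and 1739.7, against 221 to 475 on days 0 and 1. There a day 4 array at 1334, a day 10 array at 1284 and a day 14 array at 1610 overlapped them. nsd1a rose by 1.82 ± 0.42 (SE) and 1.86 ± 0.40 in the day 4 and late contrasts, but its other probe set was highest on day 1 in batch 1 and on day 0 in batch 2. hpcal1, a neuronal calcium sensor protein, was the other member to rise after day 4, by 1.18 ± 0.26 (adjusted p = 0.0044).

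spryd4, which led the ranking, had 686 and 794 on day 7 in batch 1, above the 403 to 493 of days 10 and 14 and the 19.8 to 59.0 of days 0 and 1. In batch 2 it had 296, 156, 192, 233 and 189 on day 7, which overlapped day 4 (62.2 to 203) and day 10 (78.1 to 243). A clear margin in batch 1 thus stood beside a margin within the spread of batch 2. The other probe set of spryd4, with a mean signal of 575 against 223, was highest on day 7 in batch 1 and on day 10 in batch 2.

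Genes best known from nerve cells or steroid synthesis were the dimmest group, with a median day 7 signal of 107. Of gria2a, a glutamate receptor subunit, pmchl, a hormone precursor, cyp19a1a, the ovarian aromatase, ca8 and hpcal1, hpcal1 alone rose late and none rose on day 4. The clock genes bmal1b and cry3b had a call in neither contrast, with late differences of 0.56 and 0.15.

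**Figure D4:**
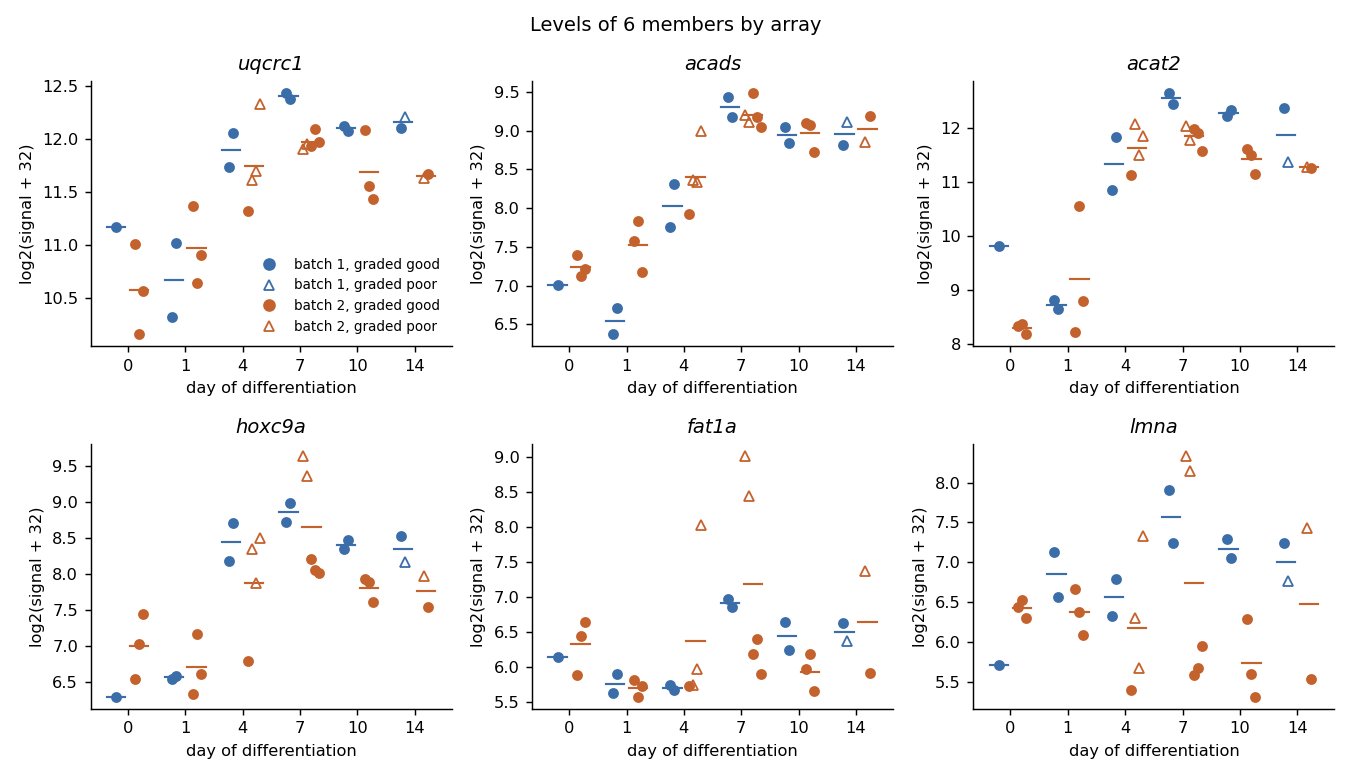
Log2(signal + 32) on each array by day for uqcrc1, acads, acat2, hoxc9a, fat1a and lmna, with circles for arrays graded good, open triangles for arrays graded poor and bars for the mean of each day and batch. In batch 2 the good and poor day 7 arrays lie together for uqcrc1, acads and acat2, and apart for hoxc9a, fat1a and lmna.

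The 5 day 7 arrays of batch 2 came from a pair of runs, and the rule ranked on their mean. The difference between the runs is therefore given as a description of the members, with no test of them. In a fit with a mean for each day within each run, 28 members were past the threshold as lower in run 4 than in run 3 and 0 as higher, where 9.26% of all probe sets were lower and 8.44% higher. The median difference was -0.39 over members and 0.06 over all probe sets. The count was 13 without day 7 replicate A of batch 2 and 9 with all 32 arrays. With all 32 arrays the calls over all 15502 probe sets fell too, to 304 higher and 499 lower. Without replicate A, replicate B was the sole run 3 array of day 7. With the scaling of the authors alone 48 members were lower, but the median over all probe sets moved to -0.55. The calls over all of them then went from 1309 higher and 1435 lower to 380 higher and 4916 lower. A high reading on either run raises the mean that the rule ranks, so members with unequal runs are favoured by the choice itself. That holds for both directions, and the cause of the calls lying on the lower side was not tested.

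The largest such differences were in top1mt (-2.87 ± 0.30 SE), fat1a (-2.57 ± 0.28), cry3b (-2.55 ± 0.37), lmna (-2.51 ± 0.31) and pmchl (-2.47 ± 0.44). For fat1a the run 3 arrays read 486 and 317 and the run 4 arrays 41.1, 52.5 and 27.6. For lmna, which encodes A-type lamins, they read 291 and 252 against 15.97, 18.9 and 29.6. The run 4 readings of both genes lay within the range of the other days.

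Batch 1 was hybridized in a single run. fat1a had 93.8 and 83.8 on day 7 there, above the 17.2 to 67.6 of the other days, and lmna had 207 and 119, where the other days reached 125. top1mt had 374 and 437 on day 7 in batch 1, clear of the 198 that was the highest other reading. In batch 2 top1mt had 474 and 414 in run 3 and 41.5, 33.5 and 25.4 in run 4, where a day 4 array reached 303.

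The poor arrays of run 3 on other days, day 4 replicate D and day 14 replicate A, also stood out for these members. For 24 of the 28 members, day 4 replicate D, from run 3, was above the other 3 day 4 arrays of batch 2, as it was for 36 of the other 72 members and for 23.6% of all probe sets. For 26 of the 28, day 14 replicate A of run 3 was above replicate B of run 4, as for 30 of the other 72 and 48% of all probe sets. Among all 1435 probe sets lower in run 4, the shares were 64.8% for day 4 replicate D and 97.1% for day 14 replicate A. The deposited median signals of the 4 poor arrays of run 3, with day 7 replicates A and B included, were 201.7 to 277.4, against 105.4 to 231.9 on the other arrays of batch 2. Their part in the day 7 level of the 28 was not tested.

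Brightness went along with the run difference. Of the 30 members with a mean signal of 500 or more, 1 was lower in run 4, whereas 14 of the 30 with a mean signal under 100 were. Over all probe sets the shares lower in run 4 were 1.82% of 4460 bright ones and 15.6% of 5175 dim ones. Of the 30 bright members 25 rose on days 10 and 14, and of the 30 dim members 9 rose. The shares of all bright and all dim probe sets that rose were not computed, so these counts have no background. With a mean signal of at least 100, 56 of 70 members and 3066 of 10327 probe sets rose. Without that limit 65 of 100 members and 3372 of 15502 probe sets rose.

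**Figure D5:**
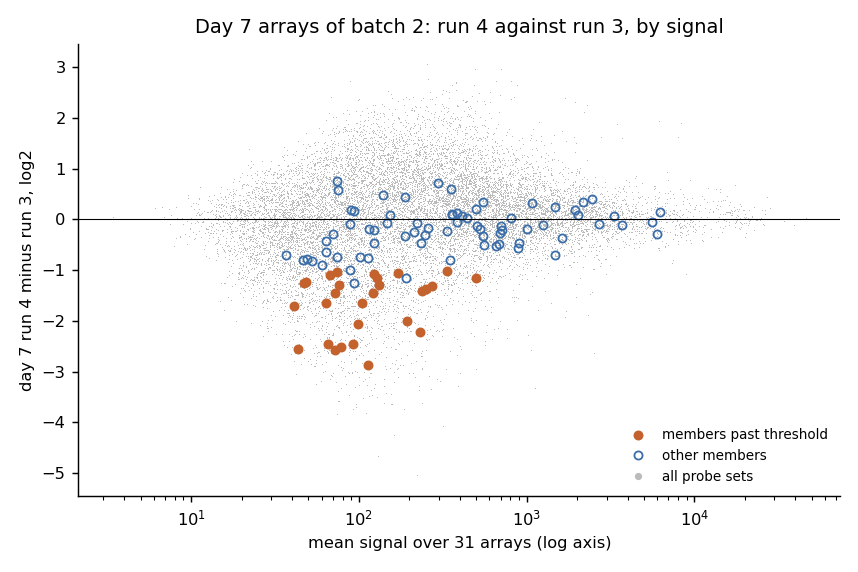
Difference between the run 4 and run 3 arrays of day 7 in batch 2 (log2) against the mean signal over 31 arrays (log axis) for all 15502 probe sets (grey) and the 100 members, with members past the threshold filled. The 28 filled members lie below 0 and at mean signals of about 500 or less.

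By role, 3 of the 4 Hox members, 3 of the 5 ubiquitin members and 4 of the 8 of chromatin, RNA and repair were lower in run 4. Of the 12 respiratory chain members 1 (coa8) was, of the 9 other mitochondrial members 1 (top1mt), and of the 8 fuel members and 3 sterol members 0. Over the 59 probe sets of the Hox family, 14 were lower and 6 higher in run 4. For uqcrc1 the difference was 0.07 ± 0.24 and for acads 0.08 ± 0.26.

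Among arrays graded good alone, day 7 was the highest day for 92 members in batch 1, for 71 in batch 2 and for 66 in both, where 16.1%, 14.4% and 3.5% of all probe sets behaved so. In batch 1 these arrays lack only day 14 replicate B of those the rule used, so the 92 largely restate the choice. In batch 2 they keep day 7 replicates C, D and E, which the rule averaged as well, so the 71 and 66 carry no test either. Of the other days there, day 4 was left with replicate A alone and day 14 with replicate B alone. Of the 28 members lower in run 4, 14 were still highest on day 7 among the good arrays of batch 2, and of the other 72, 57 were. Within run 3, the sole run of batch 2 that covered all 6 days, day 7 was highest for 75 members and for 19.3% of all probe sets. The rule averaged these arrays too, so that count carries no test. In run 3 the arrays of days 4, 7 and 14 were graded poor and those of days 0, 1 and 10 good, so grade varied with day.

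Other probe sets of the member genes gave a further reading. For 37 of the 99 genes the array held more than 1 probe set, with 43 probe sets that were not members. Of these, 23 were highest on day 7 in batch 1, 10 in batch 2 and 6 in both. Over all 15502 probe sets, 2898 were so in batch 1, 2250 in batch 2 and 509 (3.28%) in both. The 6 were those of pdha1a, hoxc11a, ap2m1b, fdps, lmna and npepl1, with scores of 0.144, 0.066, 0.018, 0.014, 0.010 and 0.005.

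The fdps pair read alike, since the other probe set stood 4.33 and 2.41 above days 0 and 1 on day 7 in batches 1 and 2, next to 4.32 and 1.98 for the member. For hoxc8a the brighter of the other probe sets, with a mean signal of 1221, was highest on day 7 in batch 1 and on day 10 in batch 2, and rose late by 1.68. The dimmer, at 66.3, was highest on day 1 in batch 1 and on day 4 in batch 2. The other probe set of lamtor2, at 939, was highest on day 7 in batch 1 and on day 10 in batch 2. That of me1, at 470, was highest on day 4 in both batches.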

How the data were processed

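RNA from the cultures was measured on 32 Affymetrix Zebrafish Genome Arrays. Per the labels, the authors made the signal intensities with MAS5 (version not given in the sources used here) and deposited 1 linear intensity per probe set, scaled per array to a target intensity. All 32 columns were matched to a sample by title, and 0 were left without one. The 115 control probe sets and the array of day 0 replicate B in batch 1 (graded poor, scale factor 915.22) were left out. The remaining 31 arrays were quantile normalized over 15502 probe sets, 32 was added and log2 was taken, which understates changes of dim genes. Signals in the text are quantile normalized and carry no offset. Gene symbols are those of GEO's platform table, replaced by the current symbol of the same Entrez ID for 10711 probe sets.

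Linear models with moderated variances (limma 3.58.1, R 4.3.3, two-sided tests) were fitted over all probe sets with Benjamini-Hochberg adjustment and a threshold of 0.05. The fit of days and hybridization runs had 21 residual degrees of freedom, the fit of runs by days 10 and the fit of batches by days 16. On simulated data with 15502 probe sets, of which 100 were changed at each size, the late contrast recovered 64% of log2 changes of 1 and 99% of changes of 2. It called 170 probe sets, 7 of them falsely. In the data 3372 were called higher and 2645 lower, so the simulated shares do not give the recovery there. The members, the gene lists and the tests were chosen with earlier results of these data known. Genes were named if they were among the 20 highest scores, stood on a list, were called with 1 of the 5 largest changes, had another probe set or lay at the edge of rank 100. Other genes were named by role after their values were seen. The study describes replicates A and B as biological duplicates for most days. Whether replicates came from separate cell preparations is not given, so p-values measure the spread between these arrays, and the number of arrays limits the precision.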

Additional observations from a re-analysis of the deposited data

Results flagged for a closer look

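Of 64 groups of 4 or 5 arrays checked for 32 named members, 3 held an array far from the others, measured as its gap to the nearest array over the range of the group. Chance flags about 1 in 20 such groups. For fat1a, day 4 replicate D of batch 2 (229) stood above the other 3 with a gap share of 0.893. For bmal1b, day 7 replicate B of batch 2 (343) stood above the other 4 with a gap share of 0.762. For nsdhl, day 4 replicate B of batch 2 (67.1) stood below the other 3 with a gap share of 0.852.

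The change from days 0 and 1 to days 10 and 14 differed between the batches for 6 members by the interaction term in limma. Over all probe sets 5.8% were higher and 6.63% lower in batch 2, so the 6 do not exceed the share of the array. Batch 2 minus batch 1 was -1.9 for spryd4 (adjusted p = 0.00564), -2.28 for fdps (0.0142), -1.32 for coq7 (0.0245), -1.85 for mrpl54 (0.00845), 1.39 for cry3b (0.0476) and -1.18 for cul5a (0.0497). For mrpl54 the late rise was 1.73 in batch 1 and -0.12 in batch 2, and the cause of the difference was not tested.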

How the results depend on the processing

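Membership depended on the arrays and the scaling more than on the offset. Of the 100 members, 46 were kept with the scaling of the authors alone, 37 with good arrays only, 40 with run 3 alone for batch 2, and 10 each with the score of batch 1 or of batch 2 alone. Leaving out single arrays kept 62 to 100 of them, the fewest without day 7 replicate A of batch 2. The late rise was called for 58 to 69 members without single arrays, the day 4 rise for 42 to 56. In batch 2 alone the late rise was called for 44 members and in batch 1 alone for 52. The scaling of the authors alone gave 50, all 32 arrays 57 and good arrays only 68. Of all 15502 probe sets, 2370, 2536, 2825, 2853 and 3642 rose in these settings, in the same order. The day 4 rise was called for 26 members with good arrays only and for 13 in batch 1 alone, where 1271 and 424 of all 15502 probe sets rose. The rise after day 4 was called for 0 members with the scaling of the authors alone, in batch 1 alone and in batch 2 alone, and for 1 to 2 without single arrays, with 1 without day 4 replicate A of batch 1 or of batch 2. The members lower in run 4 numbered 48 with the scaling of the authors alone, 14 with a mean signal of at least 100 (fewer members tested), 9 with all 32 arrays (added after the data were seen) and 13 to 30 without single arrays, the fewest without day 7 replicate A of batch 2. Batch differences of the late rise, whose alternatives were all added later, numbered 13 with the scaling of the authors alone and 3 to 10 without single arrays, with 10 without day 1 replicate B of batch 1 and 3 without day 1 replicate C of batch 2. The causes were not tested. Batch 1 alone and batch 2 alone both called the late rise for 29 members, among them acads, acat2, fdps, nsdhl, hoxc9a, ndufa10 and uqcrc1, and 26 of the 65 kept their call under all alternatives other than single arrays. Called members changed sign in 3 cases, all without a call there, namely si:ch1073-143l10.2 (-0.15) and rpap2 (-0.07) on day 4 in batch 1 alone and mrpl54 (-0.12) late in batch 2 alone. With a replicate block in place of the run, the late rise was called for 54 members, the day 4 rise for 43 and the rise after day 4 for 2. Differences between replicates A and B of batch 1 correlated at -0.34 to 0.07 over 10 pairs of days, so no clear offset was shared by a letter over days. Whether the letters mark culture series cannot be read from these correlations. For batch 2 such correlations were not computed, since its letters partly follow the hybridization runs. Dim members are limited by signal, since 30 of them had a mean signal under 100.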
